A study of Sus scrofa with 6 samples.

Results

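LFNG, DLL1, DLL3 and HES7, 4 genes of the Notch branch of the somite clock, were followed in whole pig embryos of 2 VRTN genotypes. They were found by the protein descriptions attached to the rows of the deposited table: 5 of 20523 transcript rows named 1 of them, and for DLL3, which had 2 rows, the row with more reads was used. The embryos were Large White pigs at 17.5 to 18.0 days post coitum. Wild-type embryos (WT, called qq in the protocol, 3 libraries) were compared with embryos homozygous for 2 quantitative trait nucleotides of VRTN (QQ, 3 libraries), to ask which transcripts differ between the genotypes. Each library came from total RNA of a separate embryo, genotyped on its extra-embryonic tissue. With 1 library per embryo, differences between embryos cannot be told apart from differences in handling or library preparation. No litter, dam or sex is given, so p-values reflect no more than the spread among 6 single embryos.

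Somites, the paired blocks from which vertebrae and trunk muscle arise, bud off the presomitic mesoderm at a steady rhythm set by cyclic Notch, FGF and Wnt signalling. In this circuit DLL1 is the ligand that activates Notch on the neighbouring cell, DLL3 is a divergent ligand that acts inside the cell and dampens Notch, LFNG is a Golgi glycosyltransferase that adds sugars to Notch and changes its response to ligand, and HES7 is a basic helix-loop-helix repressor that switches off its own gene and LFNG in each cycle. Loss of any of them disturbs the segmentation of the vertebral column. DLL1 and DLL3 are also expressed where neurons form in the neural tube, so in a whole embryo not all of their RNA comes from the presomitic mesoderm.

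Uniquely mapped reads ran from 12.2 to 13.5 per library in units of 1000000, and 13957 rows passed the filter on low counts. WT replicate 3 lay far from the rest, at 56.3 on a first principal component that held 59.8% of the variance. The remaining WT scores were 8.49 (replicate 1) and -0.677 (replicate 2). Each QQ score was lower still: -9.90 (replicate 1), -26.6 (replicate 2) and -27.6 (replicate 3). The genotypes thus did not overlap on this component, and how far genotype or WT replicate 3 shaped it was not tested. VRTN itself had at most 2 reads in any library, so it could not be used to check the genotype labels. Of 31 genes listed for the presomitic mesoderm and clock, 24 had a row and 19 had enough reads to test. CDX2, a caudal homeobox factor of the tail end, had 421 to 655 reads, and MSGN1, which marks early presomitic mesoderm, had 11 to 32. Others were near the floor: MESP2 had 0 to 1 reads, RIPPLY1 4 to 9, FGF8 3 to 13 and FGF4 0 to 3. The tissue that these reads came from was not tested.

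None of the 4 genes differed between the genotypes beyond the spread between embryos, and in each the WT and QQ values overlapped. LFNG and DLL1 had nearly equal means, DLL3 had 1 high QQ library, and HES7 varied about 4-fold (4.05-fold from lowest to highest) among embryos, with low and high embryos in both genotypes. At an adjusted p of 0.05 edgeR's quasi-likelihood test called 0 of the 4, against a background of 0% of all tested rows in either direction. At an unadjusted p under 0.05 it also called 0 of the 4, where 11% of all rows were higher and 9.3% lower in QQ. That count rested on WT replicate 3: without it HES7 had an unadjusted edgeR p of 0.0448 and an adjusted p of 0.353. In 0 of the 4 did every QQ library lie above every WT library, and in 0 below; over all tested rows this held for 18.8% and 9.07%, or 27.9% in either direction. The fold change was above 0 for 4 of 4 genes, 1 of them at 0.00, and over all rows it was above 0 for 49.7% and below 0 for 50.3%. DESeq2 called 0.835% of its 12329 rows higher and 0.0649% lower, and 0 of the 4 genes.

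**Figure D1:**
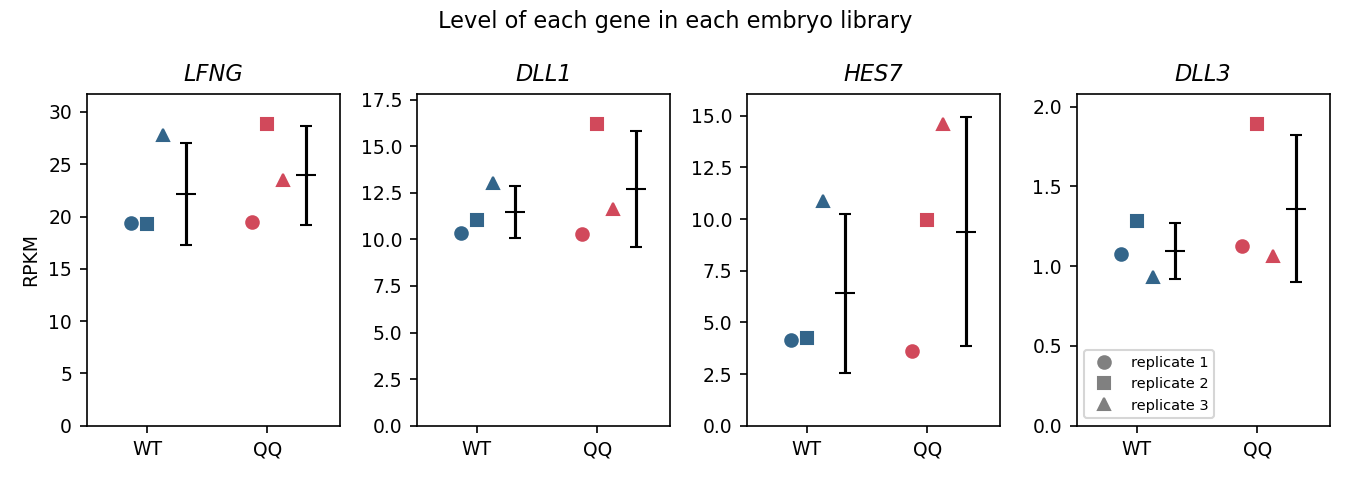
RPKM (y axis, from 0) of LFNG, DLL1, HES7 and DLL3 in the 3 WT (blue) and 3 QQ (red) libraries, with the replicate given by the symbol and the mean ± SD in black. WT and QQ values overlap for each gene, and HES7 has low values in WT replicates 1 and 2 and QQ replicate 1 (3.61 to 4.25 RPKM) and high values in the others (9.97 to 14.6 RPKM).

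DLL1, the activating ligand, had its reads spread over 85.1% to 88.5% of a 3604 bp row (Ensembl transcript ENSSSCT00000024788). The WT libraries stood at 10.3, 11.0 and 13.0 RPKM (reads scaled to transcript length in kilobases and to mapped reads in units of 1000000) in replicates 1 to 3, and the QQ libraries at 10.3, 16.2 and 11.6 RPKM. QQ replicate 2 was the highest and QQ replicate 1 the lowest of the 6, so the QQ values enclosed the WT values. WT embryos averaged 11.5 ± 1.39 RPKM and QQ embryos 12.7 ± 3.10 RPKM (SD, n = 3 each). The log2 fold change (QQ minus WT) was 0.04 ± 0.18 (SE), with a 95% interval of -0.35 to 0.44 and an edgeR adjusted p of 0.900. In linear terms that interval ran from 0.782-fold to 1.36-fold, so a QQ effect within these bounds remains compatible with the values. The exact two-sided permutation p was 0.9; with 3 libraries a group it cannot go below 0.1.

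DLL3, the divergent ligand, had few reads, and they lay on a small part of its row. The WT libraries held 31, 38 and 29 reads, or 1.07, 1.28 and 0.934 RPKM, and the QQ libraries 35, 55 and 30 reads, or 1.12, 1.89 and 1.06 RPKM. QQ replicate 2 was above every other library, and the other 5 lay together. The reads covered 16.2% to 20.7% of the 2309 bp row (ENSSSCT00000023819), against a median of 82.6% over all tested rows, and the shorter DLL3 row of 1803 bp held 0, 0 and 1 reads in WT and 3, 4 and 0 reads in QQ libraries. The RPKM of DLL3 therefore describes a short covered stretch divided by the length of a whole gene model. The log2 fold change was 0.21 ± 0.28 (SE) with a 95% interval of -0.42 to 0.85 (edgeR adjusted p = 0.665; exact two-sided permutation p = 0.6). Without QQ replicate 2 it was -0.073.

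LFNG, the modifier of Notch, had the highest level of the 4 and reads over 96.2% to 99.6% of its 2282 bp row (ENSSSCT00000008308). The WT libraries stood at 19.4, 19.2 and 27.8 RPKM and the QQ libraries at 19.5, 28.9 and 23.5 RPKM. WT replicates 1 and 2 and QQ replicate 1 were nearly equal at the low end, and WT replicate 3 and QQ replicate 2 were at the high end, so each genotype had embryos at both ends. The log2 fold change was 0.00 ± 0.19 (SE), with a 95% interval of -0.42 to 0.43 (edgeR adjusted p = 0.990; exact two-sided permutation p = 0.8). Without WT replicate 3 it was 0.23, and without QQ replicate 2 it was -0.13. In the gene table of Sscrofa11.1 the spans of CHST12 and GRIFIN overlap LFNG, and the use of strand in counting is not given in the sources used here. Their rows held at most 81 and 4 reads, against 552 to 853 for LFNG.

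HES7, the clock repressor, separated single libraries, each from 1 embryo, far more than it separated genotypes. The WT libraries held 35, 37 and 99 reads, or 4.13, 4.25 and 10.9 RPKM, and the QQ libraries 33, 85 and 121 reads, or 3.61, 9.97 and 14.6 RPKM. WT replicates 1 and 2 and QQ replicate 1 were low, WT replicate 3 and QQ replicates 2 and 3 were high, and no library lay in between. The row (ENSSSCT00000019568) is 678 bp long, and reads covered 79.2% to 99.7% of it. WT embryos averaged 6.41 ± 3.85 RPKM and QQ embryos 9.40 ± 5.53 RPKM (SD, n = 3 each). The log2 fold change was 0.42 ± 0.51 (SE), with a 95% interval of -0.73 to 1.56. The edgeR adjusted p was 0.636 and the exact two-sided permutation p was 0.7. In linear terms the interval ran from 0.603-fold to 2.95-fold, the widest of the 4. The value rested on single libraries: it was 1.07 without WT replicate 3 (edgeR adjusted p = 0.353), 0.79 without QQ replicate 1, 0.17 without WT replicate 1, 0.18 without WT replicate 2 and -0.046 without QQ replicate 3. In a whole embryo, fewer cells of a type and less RNA per cell cannot be told apart, which holds for this gene and for the other 3.

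**Figure D2:**
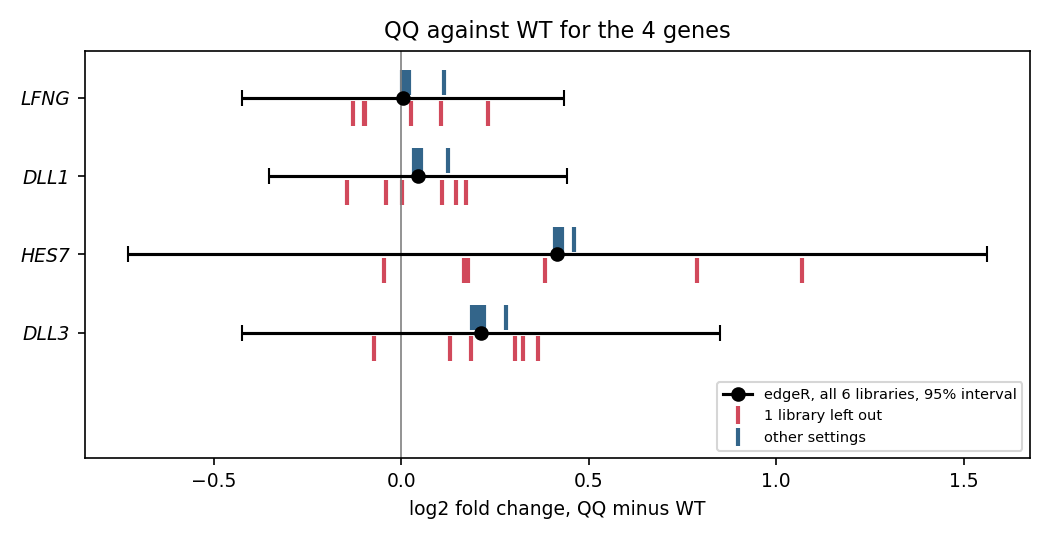
Log2 fold change of QQ against WT (x axis) for each gene: the black point and bar give edgeR's estimate with its 95% interval from all 6 libraries, red ticks the estimates with 1 library left out, and blue ticks those of the other settings. All 4 intervals include 0, and with 1 library left out HES7 runs from -0.046 to 1.07.

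Counting error did not cover the spread of HES7 within a genotype. Scaled to 1000000 mapped reads, WT replicates 1 and 2 had 2.80 (exact 95% Poisson interval 1.95 to 3.90) and 2.88 (2.03 to 3.97), and WT replicate 3 had 7.36 (5.98 to 8.96). QQ replicate 1 had 2.45 (1.68 to 3.44), and QQ replicates 2 and 3 had 6.76 (5.40 to 8.36) and 9.91 (8.22 to 11.8). The intervals were separate in 2 of the 3 pairs of WT libraries and in 2 of the 3 pairs of QQ libraries. For DLL3, with a like number of reads in its lower libraries, they were separate in 0 of the 3 pairs of each genotype. For LFNG they were separate in 2 WT and 3 QQ pairs, and for DLL1 in 2 WT and 2 QQ pairs. These intervals cover counting error only, since reads made by PCR are not independent molecules.

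On edgeR's biological coefficient of variation, the relative spread between libraries of 1 genotype that remains after counting error, HES7 stood near the top of all rows. Its value was 0.427, against a median of 0.163 over the 13957 tested rows, and 147 rows had a larger one. DLL3 stood at 0.212, LFNG at 0.176 and DLL1 at 0.165, with 77.7%, 59.3% and 51.3% of rows below them. These ranks, and that of HES7, are over rows of every abundance. They do not compare a gene with rows of a like number of reads. When each library was left out in turn, an alternative chosen after seeing the data, HES7 ran from 0.327 without WT replicate 3 to 0.458 without QQ replicate 2, with at least 97.3% of rows below it each time. The ranks of the other 3 each rested on 1 library. LFNG fell to 0.114 without WT replicate 3, with 36.8% of rows below it, and without QQ replicate 2 DLL1 fell to 0.152 and DLL3 to 0.179, with 28.1% and 49.5% of rows below them.

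**Figure D3:**
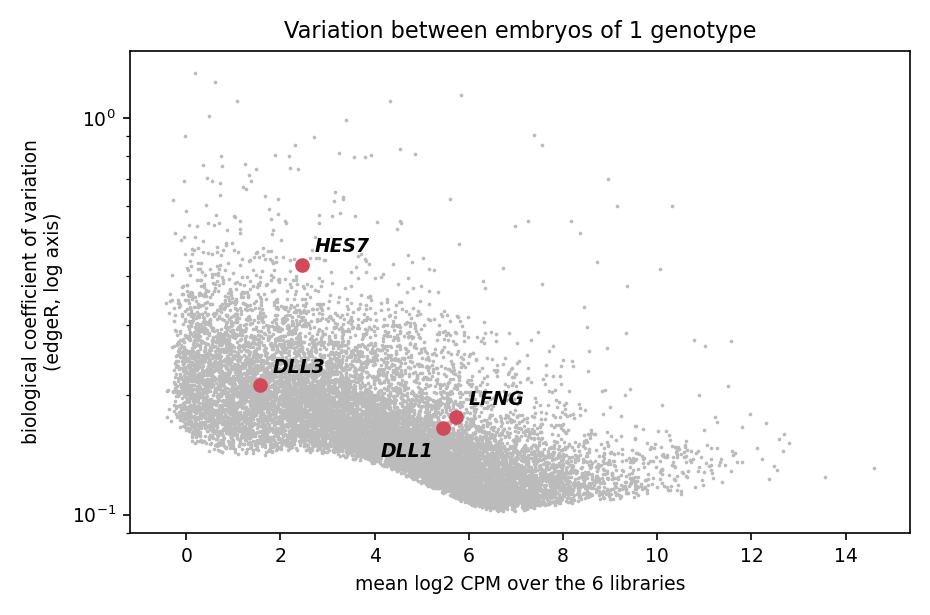
Biological coefficient of variation from edgeR (y axis, log scale) against mean log2 CPM (x axis) for the 13957 tested rows in grey, with the 4 genes in red. HES7 (0.427) lies above most rows of its abundance, and LFNG (0.176) and DLL1 (0.165) lie near the median over all rows of 0.163.

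Per transcript length the order of the mean levels over the 6 libraries was LFNG (23.0 ± 4.42 RPKM, SD, n = 6), DLL1 (12.1 ± 2.25 RPKM), HES7 (7.91 ± 4.56 RPKM) and DLL3 (1.23 ± 0.344 RPKM). LFNG was higher than DLL1 in 6 of 6 libraries, by 0.90 ± 0.11 on the log2(RPKM + 0.5) scale. The exact two-sided sign-flip permutation test gave p = 0.03125 for this pair, the smallest that 6 libraries allow, and 0.046875 after Benjamini-Hochberg adjustment over the 3 neighbouring pairs. HES7 was higher than DLL3 in 6 of 6 libraries, by 2.12 ± 0.84, with the same exact permutation p-values. In reads the 2 genes were close in WT replicate 1 (35 and 31), WT replicate 2 (37 and 38) and QQ replicate 1 (33 and 35). There the difference came from dividing by lengths of 678 and 2309 bp. DLL1 and HES7 did not differ beyond their spread: DLL1 was higher in 5 of 6 libraries, by 0.75 ± 0.68 (exact permutation adjusted p = 0.09375), and in QQ replicate 3 HES7 was the higher. The level of DLL3 is the least certain of the 4, because of the small part of its row that was covered. A bias of that kind is shared by all libraries, so a test over libraries cannot detect it. The neighbouring pairs were also set by the order of the means in these same libraries.

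Ratios of reads between members inside a library, which do not depend on the scaling between libraries, showed no shift with genotype beyond the spread. The log2 ratio of LFNG to DLL1 was the steadiest, with 0.27 ± 0.15 in WT and 0.26 ± 0.092 in QQ embryos (SD, n = 3 each). That of LFNG to HES7, the enzyme against its own repressor, was 3.67 ± 0.49 in WT and 3.30 ± 0.87 in QQ embryos, and ran from 2.44 in QQ replicate 3 to 4.18 in QQ replicate 1. Over the 6 pairs of members the difference of QQ from WT lay between -0.37 (LFNG to HES7) and 0.22 (HES7 to DLL3). The exact two-sided permutation p-values were 0.6 or more, and 0.96 or more after adjustment over the 6 pairs. These ratios are not per length, so only their differences between libraries can be read.

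Across the 6 embryos LFNG and DLL1 had their 2 highest values in the same libraries, WT replicate 3 and QQ replicate 2. Pearson's r of their log2 CPM (counts per 1000000 mapped reads) was 0.911 (exact permutation p = 0.1) and Spearman's rho 0.543 (exact permutation p = 0.297). Over the 3 correlations computed the adjusted values were 0.3 and 0.714, and without those 2 libraries r was 0.417 over the remaining 4, so the relation rested on them. DLL1 and DLL3 had an r of 0.547 (exact permutation p = 0.328) and a rho of 0.2 (exact permutation p = 0.714). LFNG and DLL3 had an r of 0.165 (exact permutation p = 0.747) and a rho of -0.371 (exact permutation p = 0.497). Without WT replicate 3 and QQ replicate 2 the r of these pairs was 0.298 and -0.716. HES7 fell into separate low and high libraries of 3 each, so no pooled correlation with it was tested. The r with HES7 given below only ranks rows, and a high value can arise from that split alone.

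The rows most like each member over the 6 libraries were picked by the highest Pearson correlation of log2 CPM among rows with a symbol and at least 1 RPKM on average. For HES7 they were CDX2 (r = 0.985), MPV17L2, which takes part in mitochondrial translation (0.981), and DHX34, an RNA helicase of nonsense-mediated decay (0.967). CDX2, which acts in the tail bud and presomitic mesoderm, stood at 21.4, 21.2 and 29.8 RPKM in WT replicates 1 to 3 and at 20.9, 33.1 and 33.8 RPKM in QQ replicates 1 to 3. The embryos that were low for HES7 were therefore also the 3 lowest for CDX2, over a narrower range. Ranks 4 to 10 were, in order, ETV5, an ETS factor (r = 0.958), GPX6, ACAD8, MSX1, a homeobox factor (r = 0.946), IFI30, CLDN10 and PLPP4. They are named after their values were seen. The same 3 lowest libraries as HES7 were then sought in the gene lists described below, a split defined after the HES7 values were seen. In the list of the presomitic mesoderm and clock, 3 of 19 tested genes had it, against 4.83% of all tested rows. They were CDX2, already picked by its correlation, its relative CDX4 and MESP1, which marks the forming somite boundary and early heart mesoderm. Among genes that process or pass on the Notch signal it was 1 of 21 (PSEN2, 4.76%), and in each remaining list 0. CDX4 stood at 2.50, 4.20 and 4.77 RPKM over the WT replicates and at 3.02, 4.62 and 4.42 RPKM over the QQ replicates. It had 90 reads in WT replicate 2 and 90 in QQ replicate 3. Its split thus rested on the division by mapped reads, with no further scaling between libraries. The other 16 genes of the presomitic mesoderm and clock list did not have this split. Among them MSGN1 had 22, 21 and 16 reads in WT and 25, 32 and 11 reads in QQ libraries, so its lowest value fell in the embryo with the most HES7.

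For LFNG the rows most alike were PCSK2, a proprotein convertase of neuroendocrine cells (r = 0.980), NUDCD3 (0.977) and LZTFL1, a ciliary trafficking protein (0.973). For DLL1 they were SLC15A4, a lysosomal peptide and histidine transporter (0.983), CACNB2, a calcium channel subunit (0.963), and IYD, an iodotyrosine deiodinase (0.960). For DLL3 they were CYP24A1, the vitamin D hydroxylase (0.982), SPC25, a kinetochore subunit (0.981), and VHL, a ubiquitin ligase subunit (0.959). None of the genes named for these 3 members is a Notch gene. With 6 libraries and 6525 eligible rows, correlations of this size describe a pattern and carry no test.

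**Figure D4:**
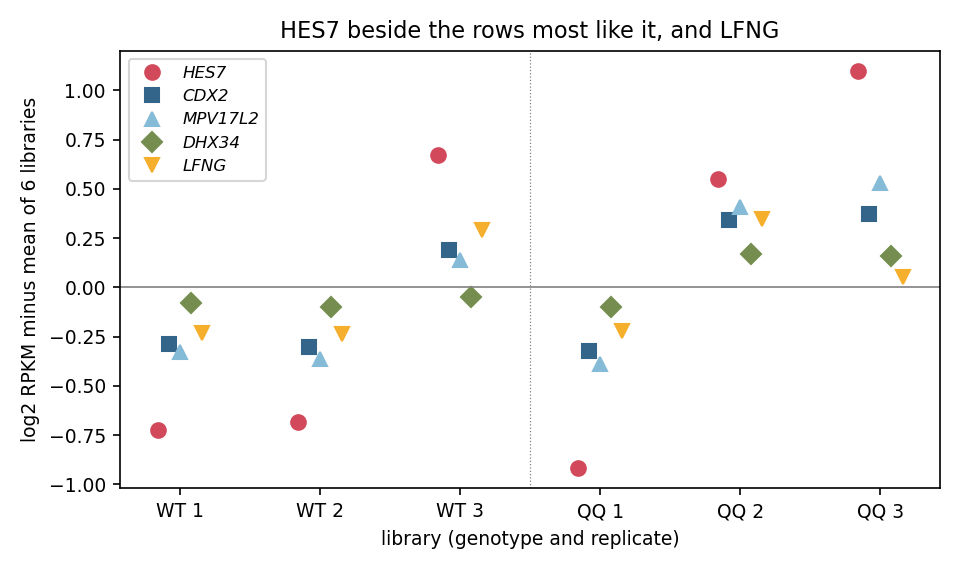
Log2 RPKM minus the gene's mean over the 6 libraries (y axis) for HES7, for the 3 rows most like it (CDX2, MPV17L2 and DHX34) and for LFNG, in each library (x axis, WT left and QQ right of the dotted line). HES7, CDX2 and MPV17L2 lie below their means in WT replicates 1 and 2 and QQ replicate 1 and above them in the other 3 libraries, with the widest range for HES7.

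Of 123 other genes of the pathway and of tissues that border it, in 7 lists, 100 had a row and 84 could be tested. EdgeR called 0 of the 84 at an adjusted p of 0.05, against 0% of all rows, and 14 had an unadjusted p under 0.05, against 20.3% of all rows. The median log2 fold change over all tested rows was -0.0028, and 49.7% of them were above 0.

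The receptors and other ligands of Notch, 6 tested of 9, had 4 higher and 2 lower values in QQ embryos and a median log2 fold change of 0.03. NOTCH2, a receptor on which LFNG can act, had the smallest p, with 23.0, 19.9 and 11.8 RPKM over the WT replicates and 26.4, 30.8 and 32.1 RPKM over the QQ replicates. Those groups did not overlap, and WT replicate 3, the library far from the rest on the first component, was the lowest (log2 fold change 0.62 ± 0.20, edgeR adjusted p = 0.233). NOTCH3 averaged 22.2 ± 2.23 RPKM over the WT and 20.9 ± 1.61 RPKM over the QQ libraries (edgeR adjusted p = 0.387). The genes that process or pass on the signal, 21 tested of 25, were split into 10 higher and 11 lower values, with a median of -0.05. The smallest p-values were those of APH1A and PSENEN, subunits of the gamma-secretase that cleaves Notch, with WT and QQ means of 99.6 ± 2.66 and 86.3 ± 4.23 RPKM for APH1A and of 61.7 ± 11.8 and 44.9 ± 3.10 RPKM for PSENEN (SD, n = 3 each; edgeR adjusted p = 0.233 for each).

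Among the targets of Notch, relatives of HES7 included, 11 of 14 were tested, with 5 higher and 6 lower values and a median of -0.02. HES4 stood at 5.53, 5.26 and 4.18 RPKM over the WT replicates and 6.44, 9.39 and 8.63 RPKM over the QQ replicates (log2 fold change 0.61 ± 0.20, edgeR adjusted p = 0.233). TLE3, a Groucho corepressor that HES proteins recruit, averaged 2.70 ± 0.505 RPKM over the WT and 4.21 ± 1.04 RPKM over the QQ libraries (edgeR adjusted p = 0.234). HES1, which cycles with HES7 in the presomitic mesoderm and is widely expressed elsewhere, did not follow it: its WT libraries stood at 51.7, 106 and 80.6 RPKM and its QQ libraries at 82.9, 64.9 and 101 RPKM. HES1 was thus highest in WT replicate 2, 1 of the 3 embryos low for HES7.

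The list of the presomitic mesoderm and clock had 14 higher and 5 lower values among 19 tested of 31 genes, and a median log2 fold change of 0.12. The smallest p-values were those of genes with lower values in QQ embryos: ALDH1A2, which makes retinoic acid, with WT and QQ means of 43.3 ± 2.70 and 36.8 ± 2.36 RPKM, and LEF1, a nuclear factor of Wnt signalling, with means of 41.0 ± 3.08 and 36.5 ± 2.10 RPKM (SD, n = 3 each; edgeR adjusted p = 0.233 and 0.234). MESP1, split like HES7, had 10, 16 and 36 reads in WT and 23, 33 and 31 reads in QQ libraries. The summed level of the 24 genes with a row ran from 681 to 803 RPKM over WT and from 815 to 900 RPKM over QQ libraries. CTNNB1, the widely expressed beta-catenin, made up 53.9% to 60.9% of it and was lowest in WT replicate 3, at 367 RPKM. Without CTNNB1, an alternative chosen after seeing the data, the sum was 312, 320 and 314 RPKM in WT replicates 1 to 3. In QQ replicates 1 to 3 it was 331, 352 and 350 RPKM, so WT replicate 3 was then not the lowest. These sums are RPKM, without edgeR's scaling between libraries (TMM). Its factor was 0.933 in WT replicate 3, and 1.06 and 1.05 in QQ replicates 2 and 3. A higher factor lowers a scaled level, so scaling would bring the WT and QQ sums closer. Whether they stay apart after scaling was not tested.

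The list of formed somites (13 tested of 18) had 7 higher and 6 lower values and a median of 0.00, and its summed level ran from 182 to 197 RPKM over WT and from 180 to 196 RPKM over QQ libraries. TWIST1, a mesoderm factor, made up 47.0% to 54.8% of that sum, and without it the sum was 83.1, 91.9 and 86.9 RPKM in WT replicates 1 to 3 and 104, 103 and 86.9 RPKM in QQ replicates 1 to 3. TWIST1 averaged 100.3 ± 5.10 RPKM over the WT and 92.3 ± 0.852 RPKM over the QQ libraries, and SIM1 had 6 to 12 reads in WT and 17 to 24 in QQ libraries (edgeR adjusted p = 0.289 and 0.233). Neural progenitor markers (7 tested of 14) had 3 higher and 4 lower values with a median of -0.0076, and summed levels of 102 to 111 RPKM over WT and 99.8 to 122 RPKM over QQ libraries. Neuron markers (7 tested of 12) had 3 higher and 4 lower values with a median of -0.12, and summed levels of 31.2 to 38.3 and 28.6 to 35.7 RPKM. The neural progenitor sum was highest in QQ replicate 2, at 122 RPKM, the library in which DLL1 and DLL3 were also highest. The presomitic mesoderm and clock sum in RPKM was highest in that library too, at 900 RPKM with CTNNB1 and 352 RPKM without it. QQ replicate 2 also had the highest TMM factor (1.06), so its place in these unscaled sums may not hold after scaling. The neuron sum was highest in WT replicate 3, at 38.3 RPKM. The part of neural or presomitic tissue in the DLL1 and DLL3 values was not tested. The genes with the smallest p-values were FABP7 and SOX3 among the progenitor markers (edgeR adjusted p = 0.538 and 0.583) and GAP43 and MAPT among the neuron markers (0.279 and 0.475). 0 of the 10 progenitor rows and 0 of the 10 neuron rows were without reads in all libraries, but 2 and 3 of them had fewer than 10 reads in every library.

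**Figure D5:**
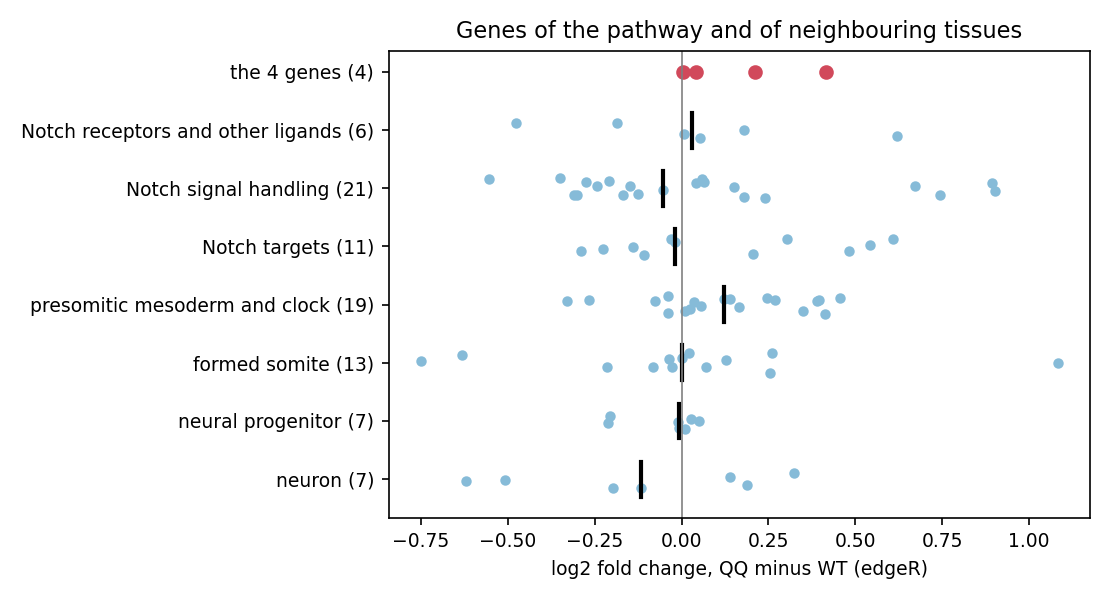
Log2 fold change of QQ against WT from edgeR (x axis) for the 4 genes (red) and for the tested genes of each list (blue, number of genes in brackets), with list medians as black bars. The medians lie between -0.12 and 0.12, and the 4 genes lie between 0.00 and 0.42.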

How the data were processed

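The submitters' processing notes name the genome build Sscrofa10.2. Which aligner and counting program were used, and whether strand was, is not given in the sources used here. Libraries were made with the TruSeq RNA kit, per the labels' protocols. The authors deposited 1 table with, per the file headers, the count of uniquely mapped reads, the percent of the transcript covered and the RPKM of each Ensembl transcript row in each library. The deposited counts add up to the library totals in the headers when a dash is read as 0, and the deposited RPKM follows from them and the transcript length (largest relative difference 1.29e-07).

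Counts were tested with edgeR 4.0.16 (R 4.3.3): TMM factors (0.933 to 1.06), edgeR's filterByExpr at its defaults, quasi-likelihood fits with no covariate, and Benjamini-Hochberg adjustment over 13957 rows at a threshold of 0.05. A standard error is the log2 fold change divided by the square root of F, and the 95% interval uses its t quantile. Alternatives were no filter, median-ratio scaling, DESeq2 1.42.0, limma 3.58.1 on log2(RPKM + 0.5), the replicate number as a block, added rows of a gene, and leaving out each library. EdgeR, DESeq2 and limma were also run on simulated counts with the same dispersion for all rows and no outlying library. That run does not cover a spread like that of HES7 or a library like WT replicate 3. The permutation tests were not run on simulated counts. Single values were tested with exact permutation tests in scipy 1.17.1, and figures were drawn with matplotlib 3.10.9.

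Symbols came from the pig protein accession or KEGG gene of the deposited match, or from its description, through gene tables of Sscrofa11.1 (9890 rows). The row with the most reads stands for a gene. Named genes are the 4 members, the 2 tested genes with the smallest unadjusted edgeR p in each list, and the 3 rows most like each member. HES1, MSGN1, MESP1, CDX4, CTNNB1, PSEN2, MESP2, RIPPLY1, FGF8 and FGF4 are named besides, chosen after their values were seen. So are the rows ranked 4 to 10 by likeness to HES7. The members and lists were chosen with earlier results of these data known. No sequences are printed.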

Additional observations from a re-analysis of the deposited data

How the results depend on the processing

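Under the alternatives 0 of the 4 genes passed the threshold, with adjusted p-values from 0.327 to 0.999, and each fold change kept its sign under the alternatives that used all 6 libraries. Leaving out 1 library turned signs: log2 fold changes ran from -0.13 to 0.23 for LFNG, from -0.15 to 0.17 for DLL1, from -0.073 to 0.36 for DLL3 and from -0.046 to 1.07 for HES7. Over all rows edgeR called 0, 0 to 3 with 1 library left out, and DESeq2 called 111 (103 higher and 8 lower). Limma on log2(RPKM + 0.5) put 2099 rows above and 640 below with p under 0.05 unadjusted, against 1540 and 1298 in edgeR. It had 0 at an adjusted p.

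The differences in level kept their direction, from 0.87 to 0.92 for LFNG over DLL1 and from 1.88 to 2.27 for HES7 over DLL3 with 1 library left out, but 5 libraries cannot give an exact permutation p under 0.0625. The differences of QQ from WT in read ratios ran, with 1 library left out, from -0.076 to 0.068 for LFNG to DLL1, from -0.81 to 0.062 for LFNG to HES7, from -0.36 to 0.13 for LFNG to DLL3, from -0.80 to 0.12 for DLL1 to HES7, from -0.29 to 0.062 for DLL1 to DLL3 and from -0.36 to 0.78 for HES7 to DLL3. The cause of these shifts was not tested.

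WT and QQ libraries share replicate numbers, but deviations from the group means correlated at -0.208, 0.236 and -0.065 for numbers 1, 2 and 3, and not every library correlated best with its own number. With the replicate number as a block edgeR called 0 rows, and 1508 rows lay above and 781 below with p under 0.05 unadjusted, and the log2 fold changes were 0.02 for LFNG, 0.03 for DLL1, 0.19 for DLL3 and 0.41 for HES7. DLL3 rests on 29 to 55 reads a library, which limits its precision. For HES7, with 33 to 121 reads, the spread between libraries of a genotype exceeded counting error.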
